A study of Mus musculus with 12 samples.

Results

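The genes described here encode the subunits of the constitutive proteasome, its base assembly chaperones, its alternative caps and its inhibitor. They are the protein-coding genes of the count table whose symbol begins with Psma to Psmf and a number. The pattern matched 47 genes, of which the 3 immunoproteasome genes Psmb8, Psmb9 and Psmb10 were set aside, so that 44 of the 32761 genes in the table remained. The 20S core had 16 of them (8 alpha ring and 8 beta ring genes) and the 19S cap 17 (6 ATPase and 11 non-ATPase genes). A further 3 were base assembly chaperones and 6 alternative caps or inhibitors, and 2 (Psmc3ip and Psme3ip1) matched by name only: Psmc3ip acts in meiotic recombination and Psme3ip1 binds a proteasome cap. The low-count filter kept 43 of the 44, and Psmb11, the beta subunit of the thymus proteasome, was not tested.

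RNA came from the corneal endothelium, the single cell sheet on the inner face of the cornea, of mice homozygous for the Q455K allele of Col8a2 and of wild-type mice. Col8a2 codes for a chain of collagen VIII, a protein of the basement membrane under these cells. Both genotypes were sampled early (age at most 2 months, batch 1) and late (age at least 8 months, batch 2), with 3 libraries described as biological replicates in each of the 4 groups. The number of animals behind each library was not given in the sources used here, and the p-values measure the spread between these libraries.

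The proteasome is the main protease for ubiquitin-tagged proteins in the cytosol and nucleus. Its 20S core is a barrel of stacked rings: alpha rings form the gate at each end, and beta rings in the middle hold the cutting sites of Psmb5 (chymotrypsin-like), Psmb6 (caspase-like) and Psmb7 (trypsin-like). The 19S cap sits on the gate. Its ring of ATPases (Psmc genes) unfolds substrates, and its non-ATPase subunits (Psmd genes) bind ubiquitin chains, cut them off and hold the cap together. A transcription factor, NFE2L1, raises most of these genes together when proteasome activity is short, through antioxidant response elements in their promoters.

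The promoters of 4 members are shown because the 2 catalytic genes Psmb5 and Psmb6 lay on opposite sides of 0 at the late stage, as described below, and because Psmc6 and Psmd2 were among the cap genes that lay on the higher side. Each sequence is the 250 bases before the RefSeq transcription start, written 5′ to 3′ on the strand of the gene, from build GRCm38.p6. The windows are chr14:54617996-54618245 on the minus strand and chr11:70525107-70525356, chr14:45329574-45329823 and chr16:20651402-20651651 on the plus strand. Capitals mark matches on either strand to the antioxidant response element core TGACNNNGC (in Psmb5, Psmb6 and Psmc6) and to the ETS site CCGGAAG (in Psmc6 and Psmd2).
Psmb5: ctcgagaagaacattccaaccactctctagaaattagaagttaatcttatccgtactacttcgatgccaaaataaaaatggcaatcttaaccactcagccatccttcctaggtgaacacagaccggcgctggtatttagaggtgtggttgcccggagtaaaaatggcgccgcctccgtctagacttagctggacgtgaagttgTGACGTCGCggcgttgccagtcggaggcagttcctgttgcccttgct
Psmb6: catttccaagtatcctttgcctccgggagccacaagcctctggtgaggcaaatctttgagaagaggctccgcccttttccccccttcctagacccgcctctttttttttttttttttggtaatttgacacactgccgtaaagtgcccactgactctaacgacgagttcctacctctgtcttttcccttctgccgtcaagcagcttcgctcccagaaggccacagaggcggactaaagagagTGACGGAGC
Psmc6: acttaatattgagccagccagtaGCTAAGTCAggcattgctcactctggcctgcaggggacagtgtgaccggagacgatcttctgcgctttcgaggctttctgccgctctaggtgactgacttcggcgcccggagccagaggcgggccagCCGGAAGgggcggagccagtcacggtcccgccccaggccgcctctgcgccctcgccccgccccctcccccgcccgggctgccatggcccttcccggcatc
Psmd2: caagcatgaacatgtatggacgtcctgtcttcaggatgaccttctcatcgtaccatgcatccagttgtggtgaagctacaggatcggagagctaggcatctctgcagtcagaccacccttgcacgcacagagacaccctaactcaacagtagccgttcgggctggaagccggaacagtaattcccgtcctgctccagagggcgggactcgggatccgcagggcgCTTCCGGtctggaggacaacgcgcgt
The match of Psmb6 ended 1 base before its start and that of Psmb5 39 bases before its start, whereas that of Psmc6 began 227 bases before its start and lay on the other strand. Promoters were found for 37 of the 44 members. The core genes Psma8, Psmb1, Psmb2 and Psmb7 and the cap genes Psmc3, Psmd3 and Psmd7 had none and were not searched. The antioxidant core was present in 5 of the 37 (13.5%), namely Psmb5, Psmb6, Psmc6, Psmd9 and Psmd12, against 11.5% of all genes in the promoter table. The CCAAT box, searched as CCAAT on both strands, was present in 15 of 37 (40.5%, against 37.5% of all genes). The ETS site was present in 12 of 37 (32.4%, against 7.83% of all genes), in 8 of the 14 matched 19S cap genes and in 1 of the 12 matched 20S core genes, Psma6. Counted by window, 10.2% of all promoter windows of this length held the antioxidant core, 33.8% the CCAAT box and 6.91% the ETS site. These are matches of letters, and no binding was measured in this study.

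Total counts ran from 19722598 to 39431676 per library, and 3 counts correspond to 0.0773 to 0.132 CPM (counts scaled to the library size with TMM factors). Late wild-type replicate 1 stood apart from its group. Its counts differed from those of replicates 2 and 3 by a chi-square per gene of 234.8 and 236.8, whereas the other within-group pairs of libraries lay between 48.1 and 124.9. In the same library the summed level of 10 corneal endothelium markers was 13210 CPM against 7170 and 6474 CPM in the other late wild-type libraries and 10084 to 12733 CPM in late mutants. The sum was 10096 to 14931 CPM in early mutants and 8138 to 11137 CPM in early wild type. By these markers late wild-type replicates 2 and 3 were thus the ones apart, below every other library. The summed level of 6 lens markers was 2133 CPM in it against 4116 and 4051 CPM, nearly all of it Cryab (2042, 3969 and 3911 CPM). The lens markers did not move together at the late stage: of the 5 tested, 3 were above 0 and 2 below. Cryaa (2.01, adjusted p = 0.0128, edgeR) and Cryba1 (1.92, adjusted p = 0.0279) were higher in mutants. Cryab was at -0.72 (adjusted p = 0.128), and the other marker below 0 was the lowest, at -1.37. In the effect averaged over both stages 1 lens marker was called, lower in mutants (adjusted p = 0.0274, edgeR). Melanocyte markers summed to 10.2 CPM in late wild-type replicate 1 against 120.3 and 90.5 CPM, and photoreceptor markers to 28.8 CPM against 78.9 and 53.7 CPM. The 10 endothelium markers did not move together between genotypes at the late stage. Of them 5 were above 0 and 5 below (-0.97 to 1.80), with 1 called higher and 1 called lower by edgeR. None of the 10 endothelium markers was at 0 in any library. Slc4a11, the transporter that marks this layer, was at 5101, 1895 and 1827 CPM in late wild type. Myeloid markers summed to 491.1 to 587.2 CPM in late mutants against 56.0 to 92.6 CPM in late wild type, and all 10 of them were higher in late mutants by edgeR's quasi-likelihood test. At the early stage they summed to 321.2 to 727.3 CPM in mutants against 40.5 to 92.4 CPM in wild type, with 7 of 10 called. Photoreceptor markers summed to 109.0 to 252.1 CPM in early mutants against 13.9 to 36.4 CPM in early wild type, and 3 of 7 were called. Melanocyte markers summed to 90.03 to 226.4 CPM in early mutants against 28.9 to 41.9 CPM in early wild type, with 0 of 5 called but all 5 without overlap. Of the 7 keratocyte markers 2 were called higher in mutants early, and 3 higher and 1 lower late, Kera being at 2.43 early and 2.35 late (adjusted p = 0.0021 and 0.00231, edgeR). The part of these differences in the proteasome values was not tested, and in bulk tissue fewer cells of a type and less RNA per cell cannot be told apart.

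Compared per length, the 20S core was the more abundant class. Mean FPKM over the 6 wild-type libraries had a median of 258 over the 15 tested core genes and 90.2 over the 17 cap genes. Beta ring genes were the highest (median 424.7 FPKM), followed by the ATPase ring (143.8) and the alpha ring (143.1, or 148.3 without Psma8), which were about level, and the non-ATPase subunits (51.4). Levels within the beta ring spread widely. Psmb6 was at 999 FPKM, Psmb3 at 777, Psmb2 at 662, Psmb1 at 424.7, Psmb4 at 414 and Psmb5 at 258, while the third catalytic gene, Psmb7, was at 35.6 FPKM. In every one of the 12 libraries Psmb6 lay above Psmb5 and Psmb5 above Psmb7. Within the cap, Psmc3 was highest (441 FPKM), followed by Psmc5 (315.5) and the ubiquitin receptor Psmd4 (247.6), and the scaffold genes Psmd1 (24.2), Psmd2 (28.7) and Psmd3 (16.5) were low with the ATPase Psmc6 (23.9). Psma8, the alpha subunit of the testis proteasome, had 128 counts and Psmb11 44 counts summed over all 12 libraries, and Psma8 reached at most 1.28 CPM.

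**Figure D1:**
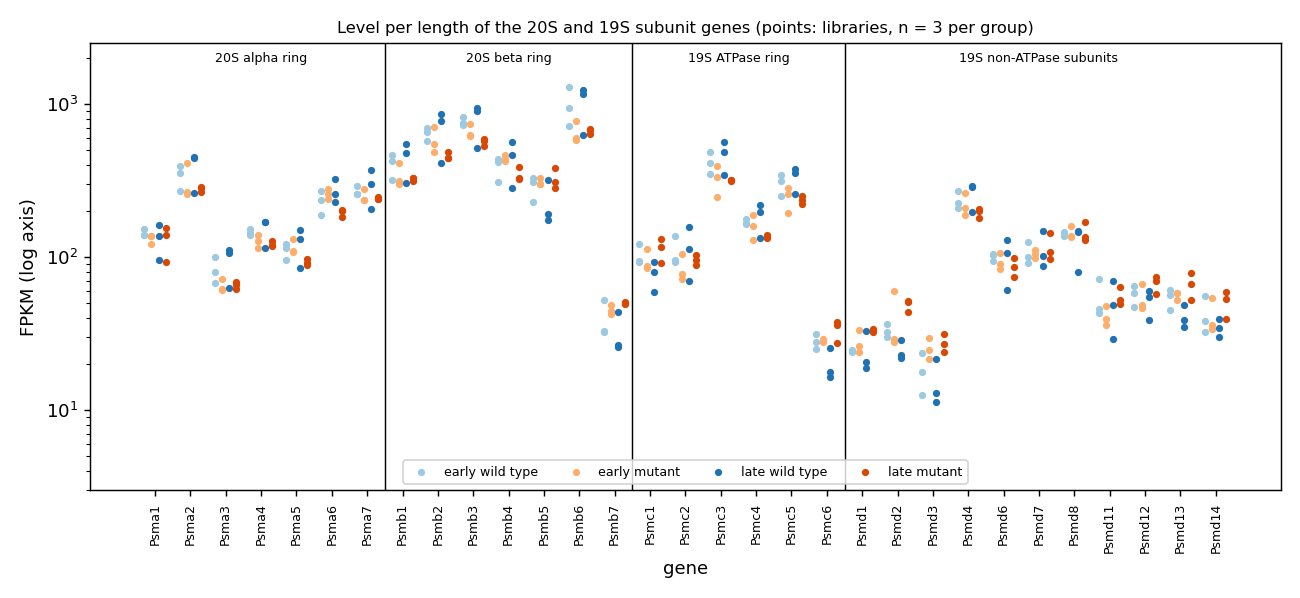
FPKM (reads scaled by gene length and library size, log axis) of the tested 20S core and 19S cap genes other than Psma8, with 1 point per library (n = 3 per group) and groups by colour. Psmb6 is the highest beta ring gene and Psmb7 the lowest, at a wild-type mean of 999 against 35.6 FPKM.

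At the early stage no proteasome gene passed the threshold between genotypes. By edgeR's quasi-likelihood test 0 of 43 members were called at an adjusted p under 0.05, 0 had an unadjusted p under 0.05, and DESeq2's Wald test called 0. Of all genes, edgeR called 0.59% and DESeq2 1.32%. Without late wild-type replicate 1, edgeR again called 0 members, against 0.93% of all genes. The median log2 fold change, mutant against wild type, was -0.03 for the 20S core and -0.01 for the 19S cap, beside -0.11 for all genes tested. Genotypes did not overlap in CPM for 6 of 43 members, all higher in mutants, against 21.9% of all genes: Psma5, Psma6, Psmb4, Psmb5, Psmb7 and Psmd3. That share of members, 6 of 43, was below that of all genes in either direction. In the higher direction alone 1810 of 17965 genes did not overlap, a smaller share than that of the members.

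Early wild-type replicate 1 stood above its group for Psmb6. This gene, the caspase-like catalytic subunit, was at 1733, 699.2 and 953.9 CPM in early wild-type replicates 1 to 3 and at 700.3, 879.2 and 723.5 CPM in early mutants. The genotypes overlapped, and the log2 fold change of -0.56 (SE 0.34, adjusted p = 0.615, edgeR) became -0.09 (adjusted p = 0.917) without early wild-type replicate 1. Without that library the class medians became 0.17 for the core and 0.29 for the cap.

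Psmd3, a scaffold subunit of the 19S lid, had the largest early log2 fold change in size among the core and cap genes. It was at 68.5, 46.8 and 56.8 CPM in early mutants and at 45.1, 43.7 and 24.0 CPM in early wild type. All 3 mutant libraries were above all 3 wild-type libraries, and the log2 fold change was 0.61 (SE 0.29, adjusted p = 0.57, edgeR).

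At the late stage core and cap lay differently, although no member passed the threshold in the fit of all 12 libraries. By edgeR 0 of 43 members were called, against 5.47% of all genes; 19 of 43 had an unadjusted p under 0.05, against 5040 of 17965 genes, and DESeq2's Wald test called 3 (Psma6, Psme1 and Psme3, all lower in mutants) against 12.4% of all genes. Of the 15 tested core genes 13 had a log2 fold change below 0, with a median of -0.64. Of the 17 cap genes 9 were above 0, with a median of 0.01, beside a median of 0.00 for all genes tested. The authors' deposited table of the late comparison gave a q-value under 0.05 to 2 members, Psme1 (log2 fold change -0.95, q = 0.0361) and Psme3 (-1.25, q = 0.0401), against 7.59% of its genes. Their early table gave such a q-value to 0 members, against 1.87% of its genes.

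**Figure D2:**
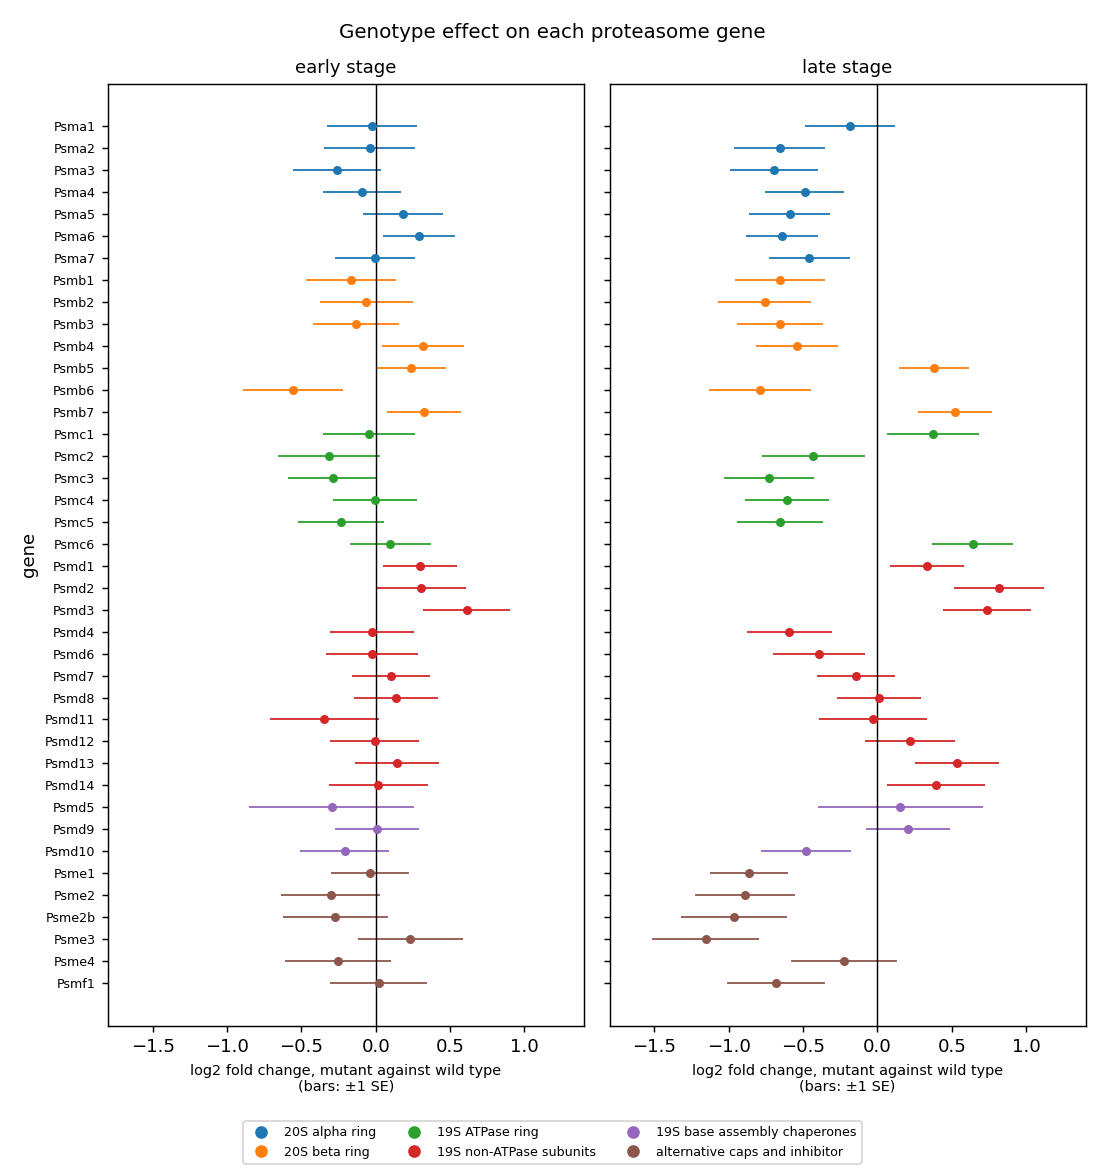
Log2 fold change of each tested member, mutant against wild type, at the early (left) and late (right) stage, with bars of ±1 SE from edgeR and colours by class; Psma8 and the 2 genes matched by name only are left out. At the late stage 12 of the 14 core genes drawn lie below 0 with Psmb5 and Psmb7 above it, the 6 alternative cap and inhibitor genes lie below 0, and the cap genes lie on both sides.

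In the alpha ring all 8 genes had late values below 0, with a median of -0.61. Psma6, an alpha ring subunit with the smallest late p of its class, was at 208.7, 183.8 and 215.0 CPM in late mutants and at 231.0, 331.5 and 384.9 CPM in late wild type. The genotypes did not overlap, and the log2 fold change was -0.64 (SE 0.24, adjusted p = 0.104, edgeR). At the early stage it had lain the other way, at 286.0, 312.0 and 308.8 CPM in mutants against 247.6, 225.9 and 266.2 CPM in wild type, with a log2 fold change of 0.29. The test of the change between stages gave -0.93 (SE 0.34, unadjusted p = 0.0133, adjusted p = 0.29, edgeR), which did not pass the threshold. The other ring members ranged from -0.18 (Psma1) to -0.70 (Psma3), apart from Psma8 at -0.96 with an SE of 1.28.

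The beta ring split within itself. Late values lay between -0.54 and -0.79 for Psmb1, Psmb2, Psmb3, Psmb4 and Psmb6, while Psmb5 and Psmb7 were above 0. Psmb6, the caspase-like subunit, was at 781.6, 589.6 and 744.5 CPM in late mutants and at 642.9, 1505 and 1507 CPM in late wild type. Wild-type replicates 2 and 3 were about at the same level, well above the mutants, and replicate 1 lay within the mutant range. The log2 fold change was -0.79 (SE 0.34, adjusted p = 0.141, edgeR).

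Psmb5, the chymotrypsin-like subunit, was at 255.8, 277.3 and 258.4 CPM in late mutants and at 254.0, 174.8 and 178.2 CPM in late wild type. Psmb7, the trypsin-like subunit, was at 54.4, 44.7 and 50.2 CPM in late mutants and at 42.2, 31.6 and 30.1 CPM in late wild type. For both genes every mutant library was above every wild-type library, and wild-type replicate 1 was the closest to the mutants. The log2 fold changes were 0.38 (SE 0.23, adjusted p = 0.288, edgeR) for Psmb5 and 0.52 (SE 0.25, adjusted p = 0.18) for Psmb7. Both genes had been above 0 at the early stage too, at 0.24 and 0.32, again without overlap.

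Psmb2, a structural beta subunit, was at 395.8, 318.3 and 402.1 CPM in late mutants and at 322.7, 769.7 and 795.0 CPM in late wild type. As for Psmb6, wild-type replicate 1 lay among the mutants and the other wild-type libraries lay far above them, at -0.76 on the log2 scale (SE 0.31, adjusted p = 0.127, edgeR).

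Among the ATPases of the cap 4 of 6 were below 0, with a median of -0.52. Psmc3 was at 541.3, 429.1 and 498.6 CPM in late mutants and at 516.6, 1063 and 858.0 CPM in late wild type. Here too wild-type replicate 1 lay within the mutant range, and the log2 fold change was -0.73 (SE 0.30, adjusted p = 0.128, edgeR). Psmc2, chosen for the largest early log2 fold change in size of its class (-0.31), was at 191.7, 132.0 and 164.4 CPM in late mutants and 114.0, 326.8 and 217.0 CPM in late wild type, at -0.43 on the log2 scale (SE 0.34, adjusted p = 0.427, edgeR). Psmc6, singled out after its values were seen, lay the other way. It was at 91.6, 53.3 and 80.9 CPM in late mutants and at 54.7, 48.1 and 41.9 CPM in late wild type, so that the lowest mutant library lay below the highest wild-type library. Its log2 fold change was 0.64 (SE 0.27, adjusted p = 0.136, edgeR), and Psmc1 was at 0.38 (adjusted p = 0.438).

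The non-ATPase subunits of the cap were above 0 for 7 of 11 genes, with a median of 0.22. Psmd2, a scaffold of the base and a docking site for ubiquitin-carrying shuttle proteins, was at 150.0, 140.5 and 164.8 CPM in late mutants and at 69.4, 110.4 and 78.0 CPM in late wild type. The genotypes did not overlap, at 0.82 on the log2 scale (SE 0.30, adjusted p = 0.0979, edgeR). Psmd3 was at 69.5, 48.1 and 49.8 CPM in late mutants and at 42.1, 32.1 and 26.1 CPM in late wild type. It did not overlap either, as at the early stage, and the log2 fold change was 0.74 (SE 0.29, adjusted p = 0.118, edgeR). Psmd4, the ubiquitin receptor, was the lowest of the class at -0.59 (adjusted p = 0.18), and Psmd14, the deubiquitinase of the lid, was at 0.39 (adjusted p = 0.452).

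Of the 3 base assembly chaperones 2 were above 0, and none had an unadjusted p under 0.05. Psmd10, known as gankyrin, was at 68.8, 53.6 and 65.7 CPM in late mutants and at 54.8, 99.4 and 108.3 CPM in late wild type, at -0.48 on the log2 scale (SE 0.30, adjusted p = 0.301, edgeR). Psmd5 was at 86.7, 32.3 and 82.7 CPM in late mutants and at 23.6, 94.5 and 63.4 CPM in late wild type, at 0.15 on the log2 scale (SE 0.55, adjusted p = 0.881, edgeR). Its libraries spread over the whole range in both genotypes.

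The alternative caps and the inhibitor were all below 0 at the late stage (6 of 6, median -0.88). Psme1 and Psme2 encode the chains of PA28, a cap that opens the core without ATP and is known from antigen presentation. Psme1 was at 227.5, 214.3 and 235.0 CPM in late mutants and at 293.3, 471.3 and 465.5 CPM in late wild type. All mutant libraries were below all wild-type libraries, and the log2 fold change was -0.86 (SE 0.26). Its adjusted p of 0.0579 (edgeR) was the smallest of the 43 tested members in this comparison. Psme1 was at 330.7 ± 30.1 CPM (SD, n = 3) in early mutants and 339.3 ± 90.7 CPM in early wild type. Psme2 was at 236.9, 213.5 and 249.5 CPM in late mutants and at 240.9, 515.4 and 542.1 CPM in late wild type, at -0.89 on the log2 scale (SE 0.34, adjusted p = 0.104, edgeR). Wild-type replicate 1 lay within the mutant range. Psme2b is a near copy of Psme2, so reads may have been split between them, and both are uncertain.

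Psme3, which encodes the nuclear PA28 cap and was singled out after its values were seen, had the largest late log2 fold change in size of the 43 members. It was at 14.0, 29.3 and 22.6 CPM in late mutants and at 45.0, 75.6 and 26.2 CPM in late wild type. The highest mutant library lay above the lowest wild-type library, and the log2 fold change was -1.16 (SE 0.36, adjusted p = 0.0608, edgeR). Psmf1, the inhibitor known as PI31, was at -0.68 (adjusted p = 0.18) and Psme4, the PA200 cap, at -0.22 (adjusted p = 0.709).

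Genotypes did not overlap at the late stage for 7 of 43 members, 4 higher (Psmb5, Psmb7, Psmd2 and Psmd3) and 3 lower (Psma6, Psme1 and Psme2b) in mutants, against 25.9% of all genes. The share of members was again below that of all genes, and late wild-type replicate 1 lay within the mutant range more often than the other late wild-type libraries. It did so for 19 of 43 members, against 8 for replicate 2 and 9 for replicate 3. For 7 further members it lay beyond the mutants on the side away from replicates 2 and 3. Wild-type replicates 2 and 3 were clear of all 3 mutants for 31 of 43 members, against 51.6% of all genes. With replicate 2 or replicate 3 set aside instead, the other 2 were clear for 8 of 43 members each, against 33.3% and 33.4% of all genes. Replicate 1 thus stood apart over all genes too. Its position within or beyond the mutant range was not counted over all genes, so the 19 and the 7 are not read as a trait of these members.

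**Figure D3:**
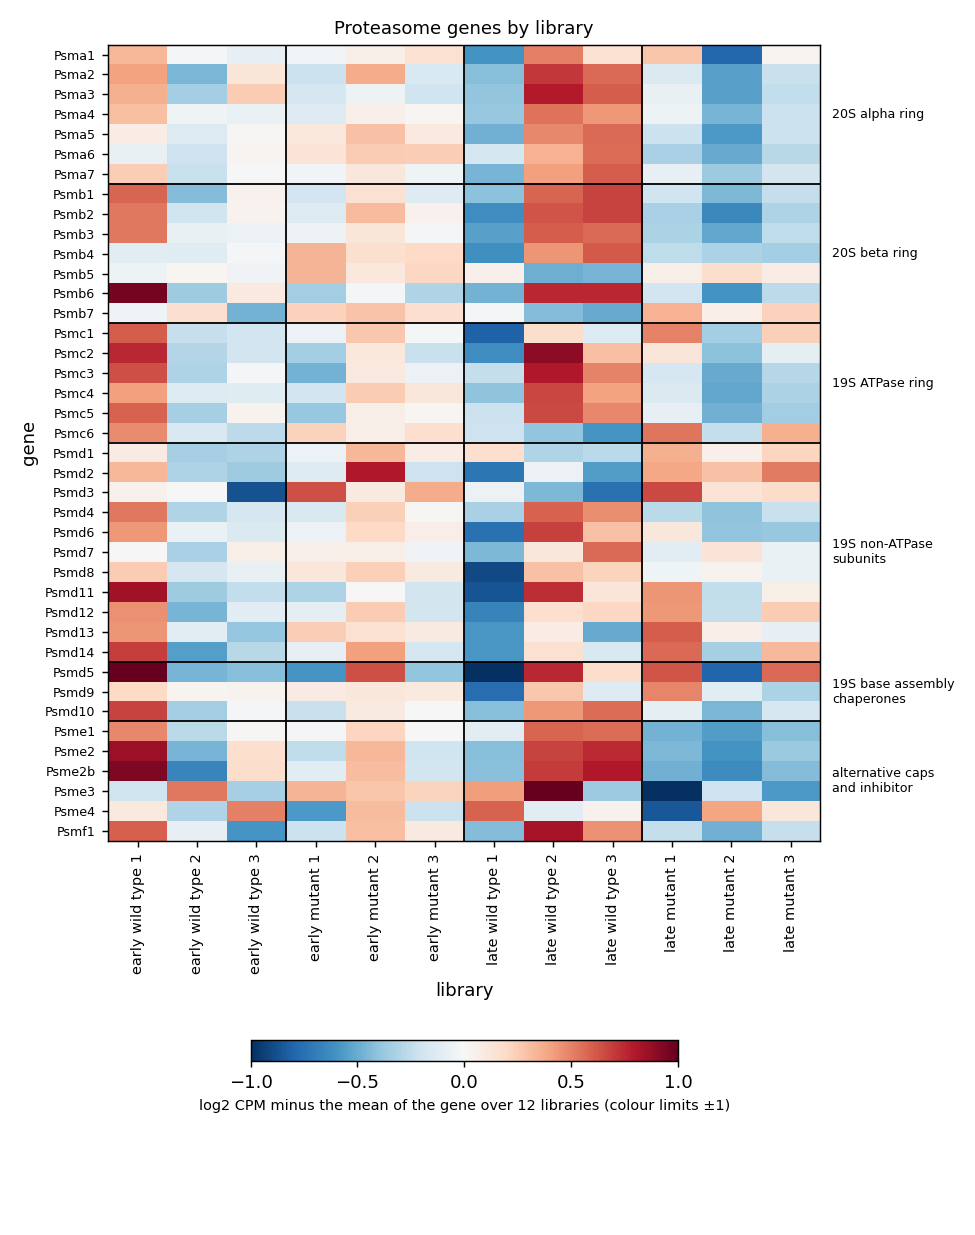
Log2 CPM of 40 members, each minus its mean over the 12 libraries, with libraries in columns by group and genes in rows by class (colours stop at ±1). Late wild-type replicates 2 and 3 are high for most core genes and low for Psmb5 and Psmb7. Late wild-type replicate 1 lies within the mutant range for 19 of 43 members, a count not taken over all genes. Early wild-type replicate 1 is high for Psmb6, Psmc2 and Psme2 among others.

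Without late wild-type replicate 1, 19 of 43 members passed the threshold at the late stage by edgeR, or 44.2%, against 20.3% of all genes. That fit rests on 2 late wild-type libraries, the lowest in endothelium markers, and its median over all genes was 0.27, against 0.00 with all libraries. The library left out lay within the mutant range for 19 of 43 members, while the other 2 were clear of the mutants for 31. Leaving it out can therefore widen the gap between genotypes and narrow the spread. Calls of this fit are given as a description and not as shown differences. In that fit the members called higher in mutants by edgeR were Psmb5 (0.71, SE 0.20, adjusted p = 0.0281), Psmb7 (0.82, adjusted p = 0.029), Psmc6 (0.87, adjusted p = 0.0411) and Psmd3 (1.07, adjusted p = 0.0252). The other 15 were called lower. All 7 tested beta ring genes were called, 5 of them lower: Psmb2 (-0.94, adjusted p = 0.0196), Psmb6 (-0.97, adjusted p = 0.0365), Psmb1, Psmb3 and Psmb4. In the alpha ring 4 of 8 fell (Psma2, Psma3, Psma5 and Psma6), so that 11 of 15 core genes were called. In the cap 4 of 17 were called, Psmc3 and Psmc4 being lower and Psmc6 and Psmd3 higher. Of the alternative caps Psme1, Psme2 and Psme2b fell, while Psme3 was at -1.08 (adjusted p = 0.0513). Psmd2 was at 0.82 (adjusted p = 0.0727). Class medians were -0.72 for the core and -0.15 for the cap. Endothelium, melanocyte and photoreceptor markers and Cryab moved with the library left out, as given above. Late wild-type replicate 3, which the fit keeps, was the highest library in corneal epithelium markers (310.3 CPM). The part of these markers in the values of the fit was not tested.

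**Figure D4:**
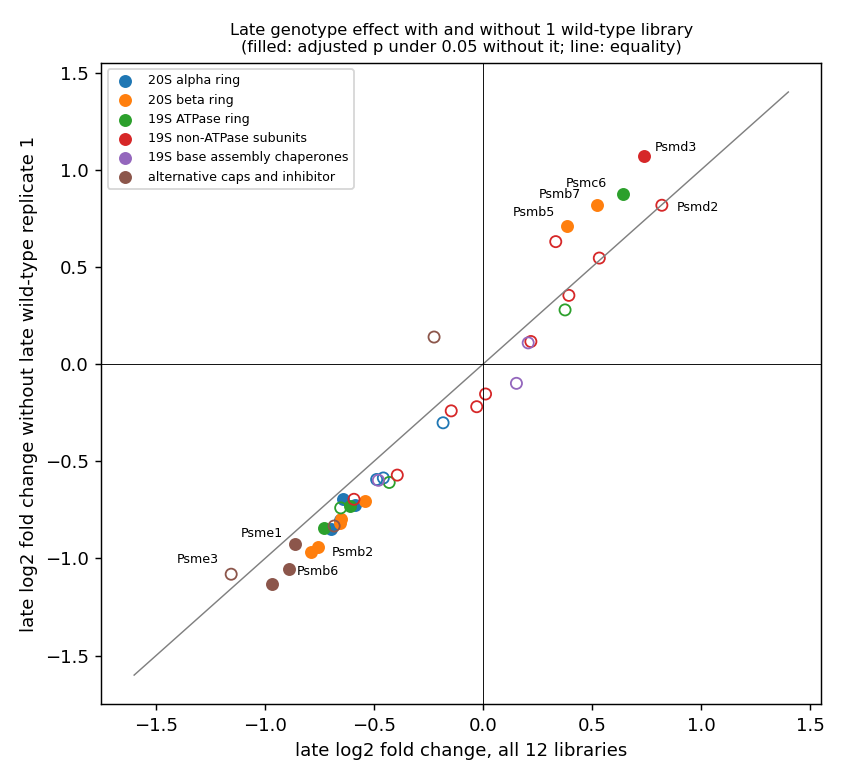
Late log2 fold change of each tested member (Psma8 and the 2 genes matched by name only left out) with all 12 libraries (horizontal axis) against the value without late wild-type replicate 1 (vertical axis), coloured by class and filled where the adjusted p is under 0.05 without it. Psmb5, Psmb7, Psmc6 and Psmd3 are filled above 0 and farther from 0 than with all libraries, and Psmb2, Psmb6 and Psme1 are filled below 0.

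The level of the core relative to the cap was taken in each library as the mean log2 CPM of the 15 tested core genes minus that of the 17 cap genes. Since CPM are not scaled by length, only differences between libraries are read from it. It was -0.20, 0.13 and 0.17 in late mutants and 0.42, 0.43 and 0.78 in late wild type. All late mutant libraries were below all late wild-type libraries, late wild-type replicate 1 included, and the group means were 0.04 ± 0.20 and 0.54 ± 0.20 (SD, n = 3). By chance 10% of splits of 3 against 3 libraries do not overlap, and 25.9% of all genes did not overlap between genotypes late. In early mutants it was 0.38, 0.23 and 0.19 and in early wild type 0.05, 0.41 and 0.43, and the genotypes overlapped. The difference of the means, mutant minus wild type, was -0.51 late and -0.03 early.

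The ATPase ring and the non-ATPase subunits of the cap gave different values when taken apart, a split made after the values were seen. The core minus the non-ATPase subunits was 0.049, 0.31 and 0.42 in late mutants and 0.76, 0.83 and 1.15 in late wild type, without overlap and with a difference of -0.65. The core minus the ATPase ring was -0.65, -0.20 and -0.29 in late mutants and -0.20, -0.31 and 0.10 in late wild type. There the genotypes overlapped, with a difference of -0.24. Without Psma8 the late differences were -0.60 and -0.19, again without overlap against the non-ATPase subunits and with overlap against the ATPase ring.

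Psma8, whose counts are low, weighs on this mean. Without it the late values were 0.60, 0.70 and 0.74 in mutants against 1.02, 1.07 and 1.31 in wild type, again without overlap, with a difference of -0.45. The late difference was -0.57 without late wild-type replicate 1 and -0.29 when the CPM of each class were summed, which gives the weight to abundant genes. No test was run on this score, and its values from class medians are not given here. All 44 members together, Psmb11 included, took 0.796% ± 0.001 (SD, n = 3) of all counts in late mutants, 0.981% ± 0.233 in late wild type, 0.838% ± 0.119 in early mutants and 0.947% ± 0.096 in early wild type.

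**Figure D5:**
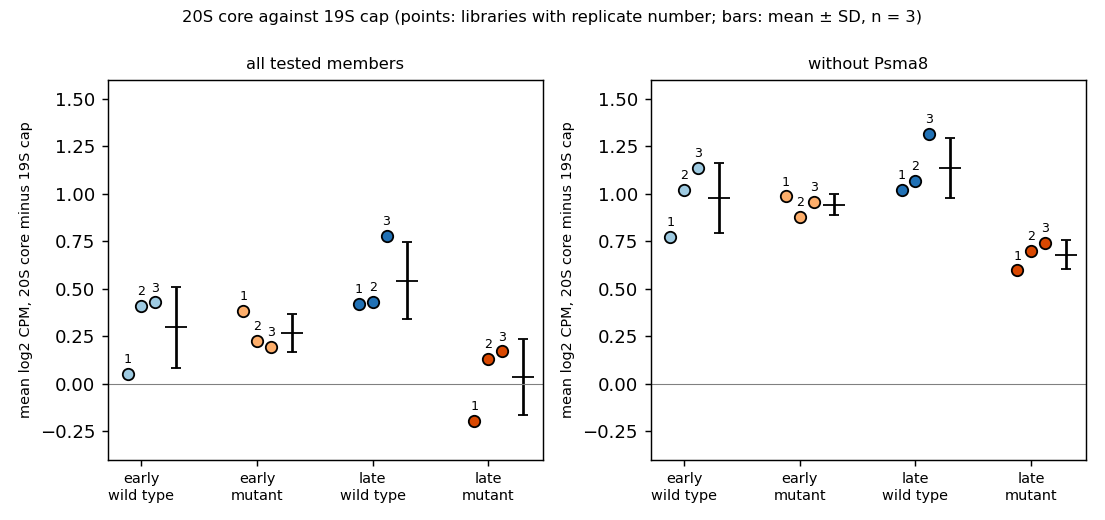
Mean log2 CPM of the 20S core genes minus that of the 19S cap genes in each library (points with replicate numbers) and the mean ± SD of each group (n = 3), for all tested members (left) and without Psma8 (right). The 3 late mutant libraries lie below the 3 late wild-type libraries in both panels, and the early genotypes overlap.

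Core and cap genes also differ in length and level. The gene lengths implied by FPKM and counts had a median of 1103 bases in the core and 1600 in the cap. Across 42 members (Psma8 and Psmb11 left out), the late log2 fold change had a Pearson correlation of 0.23 and a Spearman correlation of 0.299 with log2 length, and of -0.397 and -0.46 with the log2 wild-type FPKM. At the early stage the corresponding values were -0.045 and -0.012 with length and -0.077 and -0.186 with level. These genes share their libraries, so the correlations are descriptions. The part of length or level in the difference between core and cap was not tested.

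Averaged over both stages, 0 of 43 members passed the threshold by edgeR, against 6.85% of all genes, with 11 members at an unadjusted p under 0.05 beside 4358 of 17965 genes, about the same share, and 1 call (Psmd3) by DESeq2's Wald test, against 11% of all genes. The closest were Psmd3 at 0.67 (SE 0.21, adjusted p = 0.0564) and Psmb6 at -0.67 (SE 0.24, adjusted p = 0.0949). Without late wild-type replicate 1, 9 members passed, against 15.6% of all genes: Psmb5, Psmb7, Psmd1 and Psmd3 rose and Psma3, Psmb6, Psmc3ip, Psme2 and Psme2b fell.

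The change of the genotype effect from early to late was called for 0 of 43 members by edgeR and by DESeq2's Wald test, against 0.00557% and 1.54% of all genes. Without late wild-type replicate 1 it was again called for 0 members by edgeR, against 1.03% of all genes. With all libraries 4 members had an unadjusted p under 0.05 by edgeR (Psma6, Psmb4, Psme1 and Psme3, all negative), beside 2013 of 17965 genes, a larger share. Its median was -0.48 for the core and 0.04 for the cap. No core or cap gene was therefore shown to respond differently at the late stage. Late against early, within wild type or within mutants, 0 members were called by edgeR or by DESeq2's Wald test, against 0% of all genes by edgeR. Under any alternative run, the Wald test included, at most 67 genes (wild type) and 53 genes (mutants) were called among all genes. By edgeR 0 members (wild type) and 3 members (mutants: Psma6, Psme1 and Psme3) had an unadjusted p under 0.05, beside 724 and 1174 of 17965 genes. The share in mutants was near that of all genes. In wild type 0 of 43 members did not overlap between stages, against 4.73% of all genes. In mutants 14 of 43 members did not overlap between stages, all lower late, against 19.3% of all genes in either direction. Lower late without overlap were 1557 of 17965 genes. Stage and batch cannot be told apart in these values.

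Genes that work with the proteasome were read beside it. Of all genes edgeR called 0.59% early, 5.47% late and 6.85% averaged over both stages. An unadjusted p under 0.05 was found for 1575 of 17965 genes early and 5040 late. Without late wild-type replicate 1 edgeR called 20.3% of all genes late and 15.6% averaged. These shares are the background for the lists below and for the genes named from that fit. The limit given above for that fit, which rests on 2 late wild-type libraries, holds for these genes too. The 5 assembly factors of the 20S core (Pomp and Psmg1 to Psmg4) were all below 0 at the late stage, with 0 called by edgeR, 3 at an unadjusted p under 0.05 and a median of -0.71. Pomp, the chaperone that closes core assembly, was at 309.4, 273.5 and 329.4 CPM in late mutants and 276.6, 611.4 and 622.0 CPM in late wild type, so that wild-type replicate 1 lay with the mutants, at -0.73 on the log2 scale (SE 0.33, adjusted p = 0.16, edgeR). Without late wild-type replicate 1, Pomp (-0.89), Psmg1 (-0.84) and Psmg4 (-0.79) fell, with adjusted p of 0.0443, 0.0225 and 0.0349, while Psmg3 moved from -0.24 to 0.19 (adjusted p = 0.614). Of the 6 genes of the NFE2L1 pathway 0 were called at either stage by edgeR, with 0 early and 1 late at an unadjusted p under 0.05. Nfe2l1 itself was at 0.50 early (adjusted p = 0.583) and 0.20 late (adjusted p = 0.633). It was at 0.58 late without late wild-type replicate 1 (adjusted p = 0.0862), where it rose by 0.56 averaged over both stages (adjusted p = 0.0252), and Vcp (0.77, adjusted p = 0.0327) and Nploc4 (1.08, adjusted p = 0.0332) rose late. Vcp, the ATPase that extracts ubiquitinated proteins from membranes and complexes, rose by 0.57 averaged over both stages (SE 0.17, adjusted p = 0.0494, edgeR). That call was lost in 9 of 12 fits with 1 library left out, all but those without early wild-type replicate 2, late mutant replicate 2 or late wild-type replicate 1 (adjusted p from 0.0116 to 0.114), and with a replicate block (adjusted p = 0.0683), DESeq2 size factors (0.0602), no low-count filter (0.0589) and protein-coding genes alone (0.0736).

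Of the 6 ubiquitin receptors that deliver substrates 1 was called at the late stage, Sqstm1, which encodes p62 and links ubiquitinated cargo to autophagy. Sqstm1 was at 477.6, 383.6 and 387.2 CPM in late mutants and at 225.9, 240.4 and 215.7 CPM in late wild type. The genotypes stood apart with no library between them, replicate 1 included, and the log2 fold change was 0.87 (SE 0.24, adjusted p = 0.0425, edgeR). It was 1.00 (adjusted p = 0.0158) without late wild-type replicate 1, where Ubqln1 also rose (1.11, adjusted p = 0.0413). The call lay near the threshold: it was lost in 8 of 12 fits with 1 library left out, all but those without early mutant replicate 2, early wild-type replicate 1 or 2 or late wild-type replicate 1 (adjusted p from 0.0158 to 0.154), and with a replicate block (adjusted p = 0.0596), DESeq2 size factors (0.0548), no low-count filter (0.0519) and the compared libraries alone (0.113). Averaged over both stages Sqstm1 rose by 0.73 (adjusted p = 0.0145, edgeR), a call lost without early mutant replicate 1 (adjusted p = 0.059) and in no other fit with 1 library left out. Of the 10 tested cap-bound factors and cap subunits with other symbols 0 were called at either stage by edgeR, with 1 early and 3 late at an unadjusted p under 0.05. In the fit without late wild-type replicate 1, Usp14 (1.09, adjusted p = 0.0224) and Zfand5 (1.07, adjusted p = 0.0224) rose late. Averaged over both stages Zfand5, a zinc finger protein that activates the proteasome, rose by 0.74 (SE 0.21, adjusted p = 0.0369, edgeR). That call was lost in 9 of 12 fits with 1 library left out, the same 9 as for Vcp (adjusted p from 0.00405 to 0.088), and with a replicate block (adjusted p = 0.0515). Of the 6 genes for ubiquitin and its activating enzymes 0 were called at either stage by edgeR, with 0 early and 1 late at an unadjusted p under 0.05. Without that library Ubb fell late (-0.84, adjusted p = 0.0397). The immunoproteasome genes Psmb8, Psmb9 and Psmb10 were 3 of 3 above 0 early and 3 of 3 below 0 late, with 0 called at either stage by edgeR and 0 early and 1 late at an unadjusted p under 0.05. Their medians were 0.59 early and -0.62 late. With late wild-type replicate 1 left out, Psmb8 (-0.85, adjusted p = 0.0273) and Psmb10 (-0.84, adjusted p = 0.0301) fell at the late stage.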

How the data were processed

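Messenger RNA of 12 corneal endothelium libraries was measured. The library kit preserved strand, per the labels. Tools listed in the submitters' processing notes were HTSeq, HISAT2, fastp and DESeq2, with build GRCm39 and no versions. Annotation, strand setting of the counts and batch adjustment were not given in the sources used here. As files, the authors deposited whole-number counts per gene and FPKM values, and their own early and late comparisons with log2 fold changes and q-values, per the file headers.

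Counts were tested with edgeR 4.0.16 (R 4.3.3): TMM scaling, filterByExpr on the 4 groups, robust quasi-likelihood F test, 1 fit of 12 libraries with 8 residual degrees of freedom, Benjamini-Hochberg adjustment over 17965 genes and a threshold of 0.05. Standard errors were derived from the F statistic. The procedure was tested on simulated counts. CPM in the text are TMM-scaled, and log2 CPM for core and cap used a prior count of 2. FPKM served to compare genes per length.

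The members and all gene lists were chosen with earlier results of these data known. Genes given library by library were the 3 catalytic beta subunits, any member past the threshold in a genotype effect, and in each of 6 classes the member with the smallest late p and the one with the largest early log2 fold change in size. From the other lists up to 4 genes with the smallest late p, Nfe2l1 and Pomp could be named, and Vcp and Zfand5 were named as called averaged over both stages. The other members were named to describe their class after their values were seen. Alternatives were DESeq2 size factors, no filter, a filter of 5 CPM in 3 libraries, DESeq2 1.42.0 (Wald test), a replicate block, a fit of only the libraries compared, a fit of only protein-coding genes, each library left out, and for core against cap the class median, summed CPM and, chosen after seeing the data, leaving out Psma8 and taking the ATPase ring and the non-ATPase subunits apart. Groups, stages and batches came from the labels. Promoters were matched by gene identifier and symbol to RefSeq windows of GRCm38.p6, another build than that of the counts. The result of 1 gene of the other lists is not reported here.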

Additional observations from a re-analysis of the deposited data

How the results depend on the processing

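Late proteasome calls rested on the library and the setting. The count of members called late was 0, against 1 with no low-count filter (Psme3), 1 with the filter of 5 CPM (Psme1), 3 by DESeq2's Wald test and 2 with protein-coding genes alone (Psme1 and Psme3). It ranged from 0 to 19 when each library was left out, 19 without late wild-type replicate 1 and 1 without early wild-type replicate 1 (Psme1) or late wild-type replicate 3 (Psme3). Of all genes edgeR called 5.47% late with all libraries and 20.3% without late wild-type replicate 1, and DESeq2's Wald test called 12.4%. Averaged over both stages it was 0, against 1 (Psmd3) with no filter, 1 by DESeq2's Wald test, and 0 to 9 with libraries left out, 1 each (Psmd3) without early wild-type replicate 1 or 2 or late mutant replicate 2. The averaged shares of all genes were 6.85% by edgeR, 15.6% without late wild-type replicate 1 and 11% by DESeq2's Wald test. Shares of all genes under the other settings are not given here. The early, change and stage counts stayed at 0 under all alternatives run. The cause of these differences was not tested, beyond the libraries and genes each setting removes.

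Class medians with libraries left out ranged from -0.090 to 0.17 (early core), -0.085 to 0.29 (early cap), -0.72 to -0.40 (late core) and -0.15 to 0.25 (late cap). Core minus cap ranged from -0.15 to 0.04 early and from -0.58 to -0.39 late, and was -0.29 late with summed CPM. Counts of all genes called ranged from 51 to 361 early (106 as reported), 229 to 3909 late (983), 566 to 3004 averaged (1230), 0 to 314 for the change (1), 0 to 67 for wild-type stage (0) and 0 to 53 for mutant stage (0).

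Libraries with the same replicate number shared no common deviation (r between -0.088 and 0.081), so the numbers do not pair the samples. With a replicate block the count of members was 1 averaged over both stages (Psmd3, 0.69, adjusted p = 0.0426) and 0 in the other 5 comparisons, and not every sample correlated best with its own number. Of 494 early and late values of the 13 named members under alternatives, 480 kept their side of the threshold and 14, all late, passed it. In the averaged effect they passed it 11 times. The block also ended the calls of Sqstm1 (late), Vcp and Zfand5 (averaged).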
